A study of Rattus norvegicus with 6 samples.

Results

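The lysosome is the acidic compartment in which cells digest proteins, sugars and lipids taken up from outside or delivered by autophagy. Its hydrolases work at low pH, which the vacuolar proton pump maintains by moving protons across the lysosomal membrane at the cost of ATP. Many lysosomal genes carry a sequence called the CLEAR element near their start, which is bound by the transcription factor TFEB and its relatives. In liver both hepatocytes and macrophages are rich in lysosomes, and genes such as Cd68 and Ctsk are best known from macrophages and osteoclasts.

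The genes described here are a list of 38 rat genes for lysosomal enzymes, membrane proteins, the proton pump and TFEB. They were chosen by name, with earlier results of these data known. Probes were assigned to them through the RefSeq accession that the array gives for each probe. Of the 38 genes, 37 had at least 1 probe, among 15284 gene symbols on the array. Naglu, an enzyme of heparan sulfate breakdown, had no probe matched and was not analysed here. All 37 were well above background on all 6 arrays, so no member entered through 1 group alone.

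Liver RNA was measured on 1-colour Agilent arrays, 1 array per animal. The 3 treated animals were male Sprague-Dawley (Crl:CD(SD)) rats given bromodichloromethane at 200 mg/kg/day, a trihalomethane that forms when water is chlorinated. The 3 control animals were males of the same strain given corn oil. All were bought at 5 weeks of age and kept on a basal diet with tap water, and the route of dosing is not given in the sources used here. The labels speak of 9 weeks of administration and, in another place, of measurement at 28 days, so the length of exposure is not settled. The comparison asks how the chemical changed gene expression in the liver.

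Treated animals 2 and 3 were hybridised on slide 2, while treated animal 1 and the 3 corn oil animals shared slide 1. Between 65.3% and 66.9% of probes were well above background in treated livers, against 61.3% to 63.9% in corn oil livers. With 3 arrays in each group, the count of arrays bounds how precise any value can be. The 8 hepatocyte markers on the list used here were all well above background on every array, with a summed relative signal of 2948 to 3346 in treated livers and 3441 to 3754 in corn oil livers. Of these 8 markers, 1, Serpina1, fell. RNA came from whole liver, so fewer cells of a type and less RNA per cell cannot be told apart. Levels are given as relative signal, the background-subtracted fluorescence of a probe divided by the 75th percentile of its array. Relative signals are not compared between genes as levels, since each probe has its own response. Sums over a list of markers follow its brightest probes and do not measure the amount of a cell type.

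The promoters are shown first, because the element that TFEB reads lies in them. RefSeq promoters, from 250 bases before to 50 bases after the annotated start, were found for 29 of the 38 genes on assembly GRCr8. They were searched on both strands for the CLEAR core TCACGTGA and for the shorter E-box CACGTG that lies inside it. The CLEAR core was present in 5 of the 29 promoters (17.2%), against 260 of 33469 promoters in the whole table (0.777%). The E-box was present in 8 of the 29 (27.6%), against 6.42% of all promoters. Among 79 promoters of other lysosome and autophagy genes, 7 held the CLEAR core (8.86%). The AP-1 sequence TGANTCA was in 4 of the 29 (13.8%, against 7.33% of all), and the antioxidant response core TGANNNNGC was in 17 of the 29 (58.6%, against 40.5% of all). A match describes the letters only and does not show that a factor binds there.

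The 5 genes with a CLEAR core were Lamp1, Ctsd, Cln3, Mcoln1 and Atp6v0d1, and Lamp1 held it at 2 positions. Their windows are printed 5′ to 3′ on the strand of the gene, with the CLEAR core in capitals. The gene start is position 1, and bases before it count from -1 downward. The core began at -66 and -39 in Lamp1, at -11 in Ctsd, at -39 in Cln3, at 4 in Mcoln1 and at -53 in Atp6v0d1.
Lamp1, chr16:83075096-83075155, minus strand: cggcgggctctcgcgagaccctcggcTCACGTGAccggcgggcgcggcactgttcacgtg
Lamp1, chr16:83075069-83075128, minus strand: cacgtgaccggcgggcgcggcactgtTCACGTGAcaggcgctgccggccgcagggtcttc
Ctsd, chr1:206968822-206968858, minus strand: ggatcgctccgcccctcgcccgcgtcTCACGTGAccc
Cln3, chr1:190597935-190597994, minus strand: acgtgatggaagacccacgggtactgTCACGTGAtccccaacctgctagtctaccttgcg
Mcoln1, chr12:6358235-6358277, plus strand: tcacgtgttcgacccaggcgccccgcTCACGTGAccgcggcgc
Atp6v0d1, chr19:50357268-50357327, minus strand: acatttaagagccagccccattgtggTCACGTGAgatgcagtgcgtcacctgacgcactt

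**Figure D1:**
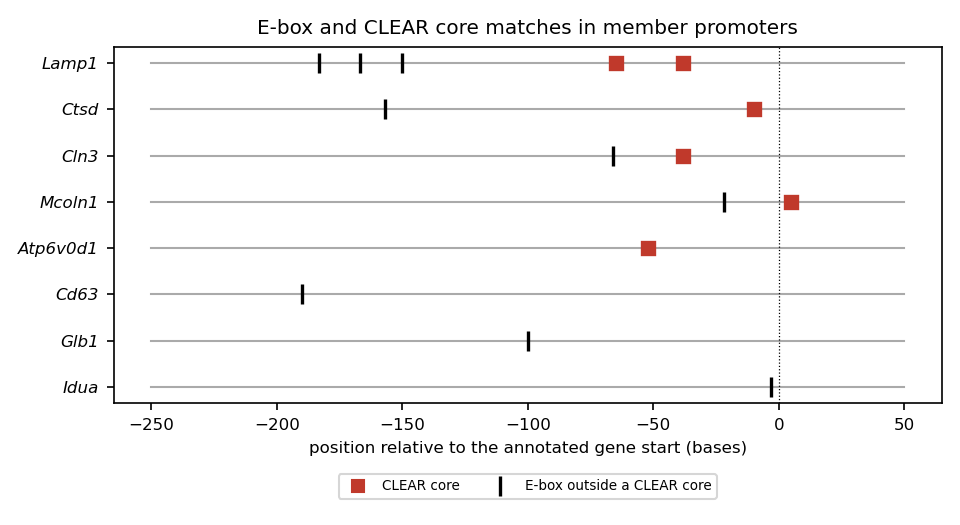
Positions of the CLEAR core (red squares) and of E-boxes outside it (black ticks) in the 8 member promoters that hold either, in bases from the annotated gene start (dotted line). Lamp1 holds 2 CLEAR cores, while Cd63, Glb1 and Idua hold an E-box alone.

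The 3 genes whose signals passed the test below, Ctsz, Ctsc and Lamp2, are shown for comparison by the 60 bases just before their start. The CLEAR core, the E-box and the AP-1 sequence were not found in the promoters of these 3 genes. The antioxidant response core was found in all 3, and in 40.5% of all promoters. In Lamp2 a match begins at -19, inside the bases printed here and not marked.
Ctsz, chr3:183653848-183653907, minus strand: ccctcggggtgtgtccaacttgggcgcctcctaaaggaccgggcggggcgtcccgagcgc
Ctsc, chr1:151440989-151441048, plus strand: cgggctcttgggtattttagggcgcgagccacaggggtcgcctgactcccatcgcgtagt
Lamp2, chrX:122087674-122087733, minus strand: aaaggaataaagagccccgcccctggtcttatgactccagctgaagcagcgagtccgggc

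Between treated and corn oil livers, the fitted folds of the 37 genes lay between 0.671 for Ctsh and 1.42 for Ctsz. On the log2 scale all lay between the 5th and 95th percentiles of all features, which were -0.62 and 0.69. The 25th and 75th percentiles were -0.19 and 0.21, and some of the 37 genes lay outside these on either side. Of the 37 genes measured, 1 rose (Ctsz) and 2 fell (Ctsc and Lamp2) in treated livers, and 34 did not pass. The test was limma with Benjamini-Hochberg adjustment over 28995 features and a threshold of 0.05. Over all features 5.96% were higher and 3.41% were lower in treated livers, and over the 11405 features with a gene symbol 4.18% were higher and 3.74% lower. The 3 calls are 8.11% of the 37 genes, which is near those background shares. The median log2 fold change over the 37 genes was -0.03, beside 0.0014 over all features, with 18 genes above 0 and 19 below. With the arrays scaled on 8 spiked-in control probes instead, the median over the 37 genes was 0.45, beside 0.48 over all features. Under that scaling 20 of the 37 genes were higher and 0 lower, while 12930 of the 28995 features were higher and 319 lower. With no filter on dim probes, with slide as a fixed block and with the replicate number as a block, none of the 37 passed. Single genes ran from -0.58 for Ctsh to 0.51 for Ctsz.

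All 3 treated animals lay above all 3 corn oil animals for 8 of the 37 genes, and all 3 lay below for 9. Over all features the same held for 18.4% above and 16% below, so groups that do not overlap were common across the whole array. The 95% interval of the fold change lay inside 1.5-fold in both directions for 25 of the 37 genes, and for 53.0% of all features. It lay inside 2-fold for 35 of the 37, with Ctsh and Cd63 as the exceptions, and for 83.0% of all features. A missed threshold does not show that levels were equal, and these intervals give the changes that the data allow.

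**Figure D2:**
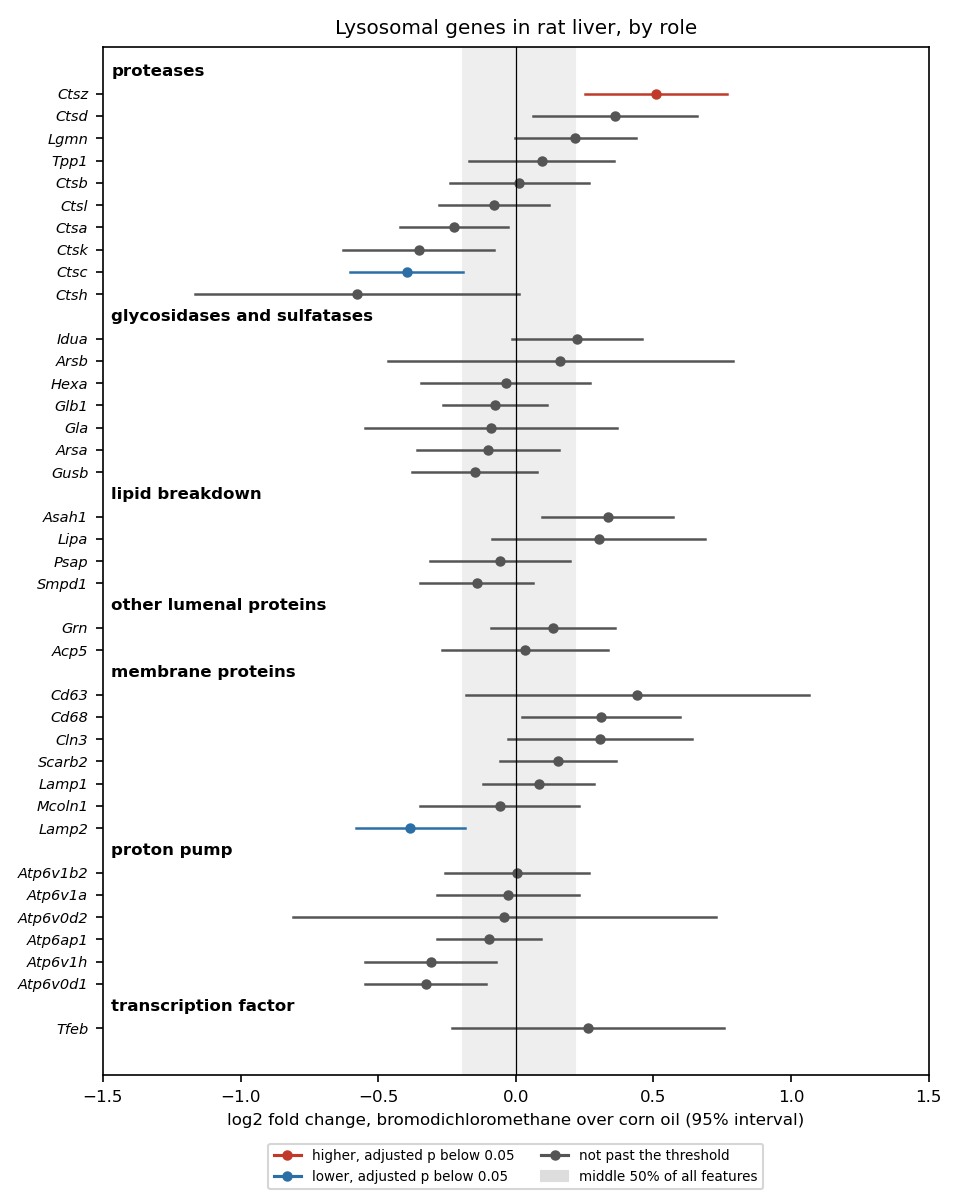
Log2 fold change of each of the 37 lysosomal genes, bromodichloromethane over corn oil, with its 95% interval, grouped by role. Ctsz (red) is higher, Ctsc and Lamp2 (blue) are lower, and the grey band holds the middle 50% of all features, from -0.19 to 0.21.

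Among the 10 lysosomal proteases, Ctsz rose, Ctsc fell and 8 did not pass. Ctsz encodes cathepsin Z, a carboxypeptidase abundant in monocytes and macrophages. Its relative signal was 3.37, 3.17 and 2.78 in treated livers, against 2.07, 2.14 and 2.33 in corn oil livers. All treated animals were above all corn oil animals, and the log2 fold change was 0.51 (SE 0.11), a fold of 1.42, with an adjusted p of 0.039. Ctsc encodes cathepsin C, the dipeptidyl peptidase that activates the granule proteases of leukocytes. Its relative signal was 40.3, 42.7 and 41.1 in treated livers, against 51.3, 55.7 and 56.4 in corn oil livers. The groups did not overlap, and the log2 fold change was -0.40 (SE 0.08) with an adjusted p of 0.041.

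Ctsz and Ctsc were each measured by 1 probe. Both calls were lost with any 1 animal left out, while the folds moved little. The log2 fold change of Ctsz then lay between 0.45 and 0.59, at an adjusted p between 0.059 and 0.129. That of Ctsc lay between -0.44 and -0.37, at an adjusted p between 0.066 and 0.121. On slide 1 alone, which holds 1 treated animal, the log2 fold change was 0.63 for Ctsz (adjusted p 0.170) and -0.43 for Ctsc (adjusted p 0.231). With spike-in scaling, Ctsz was at 0.99 and Ctsc at 0.09. The fall of Ctsc is therefore a fall relative to the other genes of the array.

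Ctsd, the aspartic protease cathepsin D and one of the genes with a CLEAR core, had relative signals of 106, 81.6 and 88.8 in treated livers and 69.1, 68.6 and 76.7 in corn oil livers. The groups did not overlap, treated animal 1 was the highest, and the log2 fold change of 0.36 had an adjusted p of 0.123. Ctsk, the collagen-degrading cathepsin K of osteoclasts, had 0.529, 0.542 and 0.489 in treated livers and 0.747, 0.659 and 0.592 in corn oil livers. Here the treated animals were all below, at a log2 fold change of -0.35 and an adjusted p of 0.107. With normexp background correction both genes passed, Ctsd at 0.45 (adjusted p 0.036) and Ctsk at -0.41 (adjusted p 0.033), while Lamp2, described below, no longer did (-0.31, adjusted p 0.055). Ctsh, the aminopeptidase cathepsin H, had the lowest log2 fold change of the list. Its relative signal was 22.9, 32.9 and 23.0 in treated livers and 38.4, 51.1 and 29.3 in corn oil livers. The groups overlapped, with treated animal 2 above corn oil animal 3, and the 95% interval of the fold ran from 0.446 to 1.01.

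The other proteases showed smaller differences. Ctsa, the carboxypeptidase that also protects lysosomal galactosidase, had a log2 fold change of -0.22, and its 3 probes lay between -0.30 and -0.22. Lgmn, the asparagine-specific protease legumain, was at 0.22 with an adjusted p of 0.187, and the treated animals lay above the corn oil animals. Ctsb and Ctsl, the widely expressed cathepsins B and L, were at 0.01 and -0.08, and Tpp1, which removes tripeptides from protein ends, was at 0.09. The groups overlapped for these last 3 genes.

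Of the 7 membrane proteins, Lamp2 fell and 6 did not pass. Lamp2 encodes a heavily glycosylated protein of the lysosomal membrane, and 1 of its splice forms is the receptor of chaperone-mediated autophagy. Lamp2 was measured by 1 probe, so its splice forms were not told apart. Its relative signal was 8.62, 9.12 and 9.07 in treated livers, against 11.2, 11.7 and 12.1 in corn oil livers. The groups did not overlap, and the log2 fold change was -0.38 (SE 0.08) with an adjusted p of 0.041. Its paralog Lamp1, whose promoter holds 2 CLEAR cores, had 23.7, 21.5 and 22.4 in treated livers and 20.6, 21.8 and 21.5 in corn oil livers. Those groups overlapped, and the log2 fold change was 0.08 with a 95% interval of the fold from 0.921 to 1.22.

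The call of Lamp2 was also lost with any 1 animal left out, at an adjusted p between 0.075 and 0.120, with log2 fold changes between -0.41 and -0.36. On slide 1 alone its log2 fold change was -0.43 with an adjusted p of 0.219, and with spike-in scaling it was 0.10. With each array centred on its median, neither Lamp2 nor Ctsc passed.

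**Figure D3:**
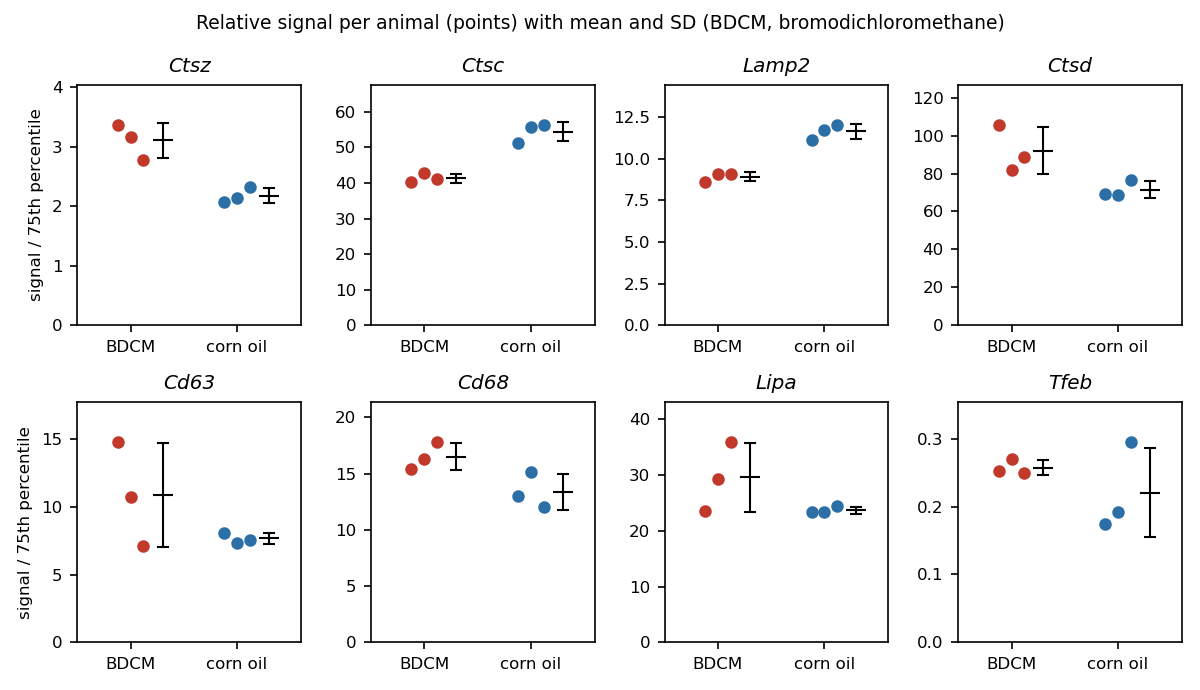
Relative signal (fluorescence over the 75th percentile of the array) of single animals for lysosomal genes, with treated livers on the left and corn oil livers on the right of each panel. Each point is 1 animal, the bars are the mean and SD of 3 animals, and the groups of Ctsz, Ctsc and Lamp2 do not overlap.

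Of the 6 other membrane proteins, all but Mcoln1 had log2 fold changes above 0, and none passed. Cd63, a tetraspanin of late endosomes and lysosomes, had relative signals of 14.8, 10.7 and 7.12 in treated livers and 8.07, 7.34 and 7.59 in corn oil livers. Treated animals 1 and 2 were above every corn oil animal while treated animal 3 was below them all, and the log2 fold change of 0.44 had an adjusted p of 0.323. Cd68, the macrophage marker macrosialin, had 15.4, 16.3 and 17.8 in treated livers and 13.0, 15.1 and 12.0 in corn oil livers. The treated animals were all above, at 0.31 with an adjusted p of 0.156, and a second probe gave 0.36.

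Cln3, a membrane protein whose loss causes juvenile Batten disease in humans, was at 0.31 with an adjusted p of 0.214. Scarb2, the receptor that carries glucocerebrosidase to the lysosome, was at 0.15. For both genes the treated animals lay above the corn oil animals. Mcoln1, a calcium channel of the lysosomal membrane, was at -0.06 with overlapping groups.

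None of the 7 glycosidases and sulfatases measured passed, and their log2 fold changes lay between -0.15 and 0.22. The smallest p belonged to Idua, which removes iduronic acid from dermatan and heparan sulfate. Its relative signal was 0.125, 0.112 and 0.118 in treated livers and 0.096, 0.098 and 0.110 in corn oil livers. The treated animals were all above, but the closest animals differed by little, and the log2 fold change of 0.22 had an adjusted p of 0.202. The glucuronidase Gusb was at -0.15, the arylsulfatases Arsa and Arsb were at -0.10 and 0.16, and the galactosidases Gla and Glb1 were at -0.09 and -0.08. Hexa, a subunit of the hexosaminidase that breaks down the ganglioside GM2, was at -0.04. Of these genes the groups did not overlap for Glb1, which was lower in the treated animals, and for Idua.

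None of the 4 genes of lipid breakdown passed. Asah1, the acid ceramidase, had relative signals of 1.45, 1.46 and 1.26 in treated livers and 1.05, 1.10 and 1.15 in corn oil livers. The treated animals were all above, and the log2 fold change of 0.33 (SE 0.10) had an adjusted p of 0.088. Lipa, the acid lipase that releases cholesterol and fatty acids from lipoprotein and droplet lipids, had 23.6, 29.3 and 35.9 in treated livers and 23.4, 23.3 and 24.4 in corn oil livers. Treated animals 2 and 3, both on slide 2, were the high ones, while treated animal 1 on slide 1 lay among the corn oil animals. The log2 fold change of Lipa was 0.30 (adjusted p 0.280) over all arrays and -0.0047 on slide 1 alone, so the difference rests on the slide 2 animals. Smpd1, the acid sphingomyelinase, was at -0.14 with all treated animals below, and Psap, the precursor of the saposins that present lipids to these enzymes, was at -0.06.

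The other lumenal proteins were Grn and Acp5, and neither passed. Grn, which encodes progranulin, had relative signals of 22.6, 21.6 and 20.3 in treated livers and 19.2, 21.0 and 18.6 in corn oil livers. The groups overlapped, and the log2 fold change of 0.13 had an adjusted p of 0.402. Acp5, the tartrate-resistant acid phosphatase of osteoclasts and macrophages, was at 0.03.

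None of the 6 proton pump genes passed, and 5 of the 6 log2 fold changes were below 0, although with spike-in scaling all 6 lay above 0. Atp6v0d1, a subunit that joins the membrane sector to the stalk of the pump, had relative signals of 9.99, 10.9 and 10.9 in treated livers and 12.4, 13.6 and 13.9 in corn oil livers. The groups did not overlap, and the log2 fold change of -0.33 (SE 0.09) had an adjusted p of 0.077. Its paralog Atp6v0d2, known in mouse from osteoclasts and macrophages, had 0.506, 0.399 and 0.210 in treated livers and 0.396, 0.349 and 0.336 in corn oil livers. Treated animal 1 was the highest and treated animal 3 the lowest of all 6, and the log2 fold change was -0.04. With variance estimated by the trend and robust options, Atp6v0d1 passed (adjusted p 0.037).

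Atp6v1h, a regulatory subunit of the cytosolic sector, was at -0.31 with an adjusted p of 0.104, and the accessory subunit Atp6ap1 was at -0.10. All treated animals were below all corn oil animals for both genes. The catalytic subunit Atp6v1a was at -0.03, with its probes between -0.40 and -0.03, and its partner Atp6v1b2 was at 0.00. Both had overlapping groups.

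Tfeb, the transcription factor itself, had relative signals of 0.252, 0.269 and 0.249 in treated livers and 0.174, 0.192 and 0.295 in corn oil livers. Corn oil animal 3 was the highest of all 6, and the log2 fold change of 0.26 (SE 0.20) had an adjusted p of 0.458. A second Tfeb probe gave -0.17, so the probes disagreed in sign. The 5 genes with a CLEAR core had log2 fold changes of 0.36 for Ctsd, 0.31 for Cln3, 0.08 for Lamp1, -0.06 for Mcoln1 and -0.33 for Atp6v0d1. None of these 5 passed, and they lay on both sides of 0.

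The list was also summed up for each animal. Measured from the corn oil mean on the log2 scale, the median over the 37 genes was 0.02, -0.03 and -0.05 in treated animals 1, 2 and 3, and -0.04, -0.0087 and 0.03 in corn oil animals 1, 2 and 3. The medians of treated animals 1 and 2 lay within the range of the corn oil medians, and that of treated animal 3 lay just below it.

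**Figure D4:**
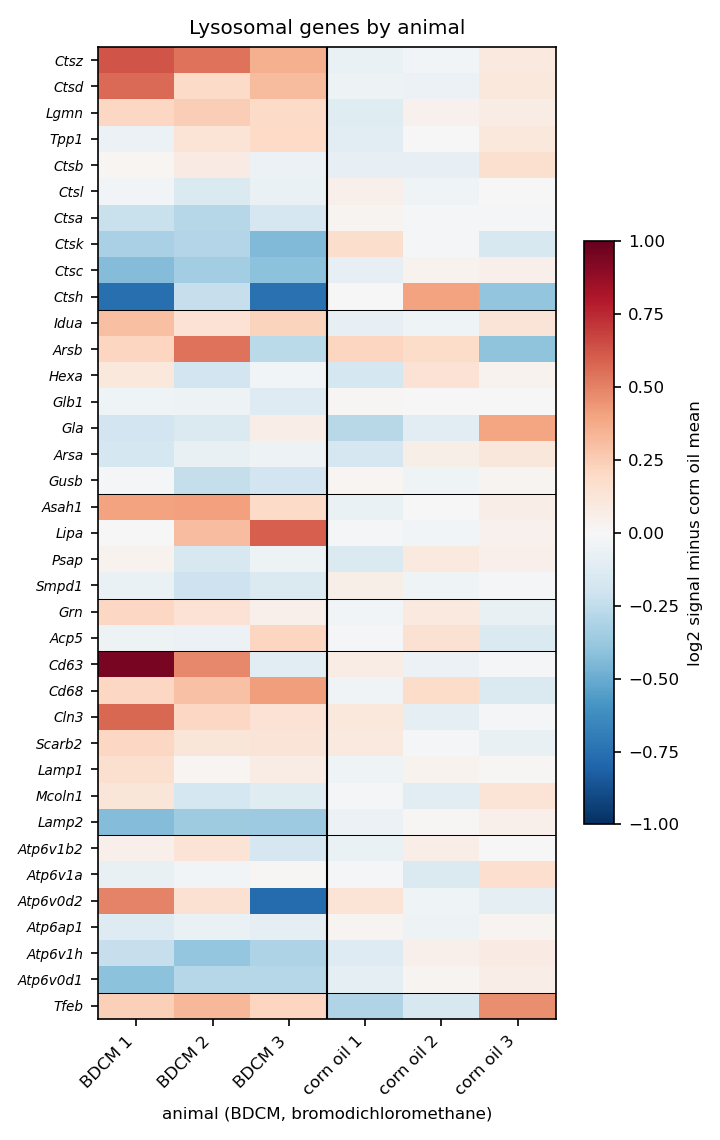
Log2 relative signal of each lysosomal gene in each animal minus its corn oil mean, with treated animals on the left and corn oil animals on the right. The treated columns hold higher and lower genes side by side, and their medians were 0.02, -0.03 and -0.05.

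Of 105 other genes of lysosome biology on the lists used here, 94 were on the array and 92 were measured, with 2 higher, 3 lower and a median log2 fold change of -0.03. These calls are 5.43% of the 92 genes, beside 5.96% higher and 3.41% lower over all features. Of 33 other hydrolases and transfer proteins measured, 1 rose and 1 fell, with a median of 0.02. Manba, which cleaves the mannose bond left at the end of glycoprotein breakdown, rose. Its relative signal was 11.1, 12.2 and 9.45 in treated livers, against 5.38, 3.49 and 4.51 in corn oil livers, with a log2 fold change of 1.31 (SE 0.18) and an adjusted p of 0.017. Cpq, a carboxypeptidase, fell, with 41.6, 50.7 and 39.6 in treated livers, against 75.2, 83.6 and 80.0 in corn oil livers. Its log2 fold change was -0.86 (SE 0.12) with an adjusted p of 0.017, and neither gene's groups overlapped. The call of Manba was lost without treated animal 2 (adjusted p 0.070), and that of Cpq without treated animal 3 (0.052) or corn oil animal 2 (0.065). On slide 1 alone Manba was at 1.34 (adjusted p 0.163) and Cpq at -0.94 (adjusted p 0.108).

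Of 23 other membrane and sorting genes measured, 1 rose and 2 fell, with a median of -0.03. Sort1, the sorting receptor sortilin, rose at 0.44 (adjusted p 0.049). Ctns, which exports cystine from the lysosome, fell at -0.75 (adjusted p 0.040), but its other probe gave -0.08. Both Ctns probes were dim. The probe used had 0.0524, 0.0698 and 0.0482 in treated livers, against 0.0961, 0.101 and 0.0860 in corn oil livers. It was well above background on every array, whereas the other probe was not in corn oil animal 1, at 0.0338. Gga2, an adaptor that loads hydrolase receptors into vesicles at the Golgi, fell at -0.51 (adjusted p 0.042). With animals left out in turn, Sort1 passed in none of the fits, Ctns only without treated animal 2 (adjusted p 0.048) and Gga2 only without corn oil animal 1 (adjusted p 0.049). None of 13 other pump subunits passed, with a median of -0.04, and the smallest p belonged to Atp6v0c, the proteolipid of the pump, at -0.28 (adjusted p 0.091). None of 23 genes of the TFEB family, its control and autophagy passed, with a median of -0.07. The smallest p belonged to Gabarapl1, an autophagosome protein, at -0.42 (adjusted p 0.064), but its other probe gave -0.10.

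**Figure D5:**
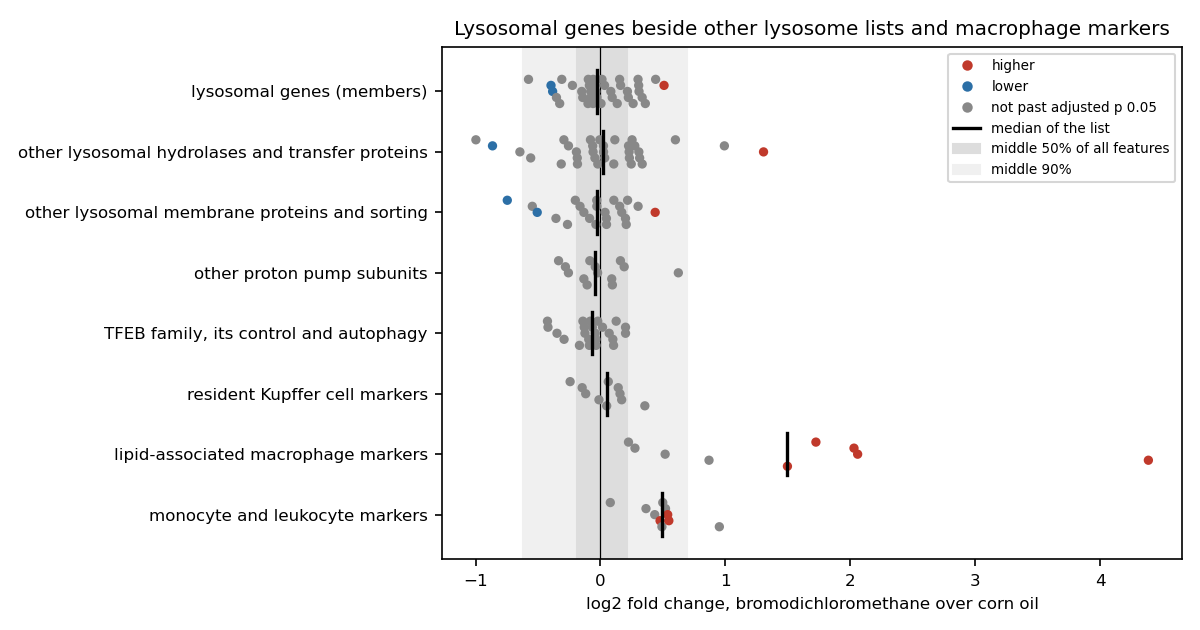
Log2 fold change, bromodichloromethane over corn oil, of each gene in the lysosomal list, the other lysosome lists and the macrophage marker lists. The lysosome lists are centred near 0, and the markers of lipid-associated macrophages lie to the right with a median of 1.50.

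Markers of macrophages were measured beside these genes because several lysosomal genes are abundant in such cells. The marker lists too were chosen with earlier results of these data known, so their counts and medians are a description only. Of 10 markers of lipid-associated macrophages, 9 were measured and 5 rose, Mmp12 at 4.39, Fabp4 at 2.06, Trem2 at 2.03, Gpnmb at 1.73 and Lgals3 at 1.50. The median over the 9 was 1.50, and their summed relative signal was 77.2, 59.4 and 38.6 in treated livers, against 24.2, 20.3 and 26.3 in corn oil livers. These sums are mostly Lgals3, Fabp5 and Gpnmb, which were highest in treated animal 1 and lowest in treated animal 3, whereas Trem2 and Mmp12 were highest in treated animal 2. On slide 1 alone the 5 genes had log2 fold changes from 1.46 for Trem2 to 4.52 for Mmp12, and none passed. In 2 of 3 corn oil livers Mmp12 stood well above background, and the other 8 markers did so on every array. Among lysosomal genes linked above to macrophages or leukocytes, Ctsz was at 0.51 and Cd68 at 0.31. Acp5 was at 0.03, Atp6v0d2 at -0.04, Ctsk at -0.35 and Ctsc at -0.40. The part of macrophages in the values of the lysosomal genes was not tested.

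Of 10 monocyte and leukocyte markers measured, 3 rose, Tyrobp, Ly86 and Fcer1g. Their median was 0.50 and their summed relative signal was 89.9 to 103 in treated livers, against 68.6 to 77.7 in corn oil livers. None of 10 markers of resident Kupffer cells passed, with a median of 0.06 and sums of 197 to 243 in treated livers, against 200 to 253 in corn oil livers. Of 7 markers of T, NK and B cells, 2 rose, Cd3e and Cd2, and neither was well above background in any corn oil liver. Of 4 bile duct markers, Epcam rose, of 3 endothelial markers, Lyve1 fell, and none of 7 stellate and fibroblast markers passed.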

How the data were processed

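Liver RNA of 6 rats (3 treated with bromodichloromethane, 3 given corn oil) was labelled with Cy3, per the labels' protocols. Spots were read by Agilent Feature Extraction 10.7, as the submitters' processing notes and the labels record. For each spot the deposited files give a linear fluorescence intensity, background-subtracted per the file headers and not scaled between arrays. The deposited value table holds a linear ratio, which from its values is the processed signal over the 75th percentile of the array; at least 96.4% of probes per array lay within 1% of this. It was used only as an alternative.

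From the deposited intensity, log2 values were computed and the 75th percentile of the 61657 non-control probes was subtracted per array. Outlier spots removed 27 probes. Probes were named by unversioned accession through RefSeq of rat GRCr8, and 27460 matched 1 symbol. A probe was kept when well above background on all 3 arrays of a group, and the brightest probe stood for a gene. limma 3.58.1 in R 4.3.3 compared the groups, two-sided, with Benjamini-Hochberg adjustment over 28995 features, and every adjusted p comes from it. A run on simulated data with known changes held no slide effect, so it does not bear on the split of animals between slides. Promoters and summaries used Python 3.11.15.

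Members and lists were chosen with earlier results of these data known. Values per animal are given for members past the threshold, for Tfeb and for the smallest p of each role without a call. From each other lysosome list up to 4 members past the threshold are named, or the smallest p. Per-animal values of Ctsd, Ctsk, Ctsh, Lamp1, Cd63, Cd68, Lipa and Atp6v0d2 were added after their values were seen. Marker genes past the threshold are named.

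Alternatives changed the background correction (normexp, offset 50), the scaling (quantile, median or spike-in), the filter on dim probes (none, or all 6 arrays), the summary over probes, the variance model (trend and robust), the source (value table), the handling of slide (fixed block, random block, or slide 1 by itself), the replicate block, a common floor and the set of animals, leaving out each in turn. The normexp setting used the median signal, since the files have no mean signal column, and it and the common floor were chosen after seeing the data.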

Additional observations from a re-analysis of the deposited data

How the results depend on the processing

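The counts of calls were small and moved with most settings. With 1 of the 37 lysosomal genes higher and 2 lower, normexp gave 2 higher (Ctsd added) and 2 lower (Ctsk in place of Lamp2), spike-in scaling gave 20 higher and 0 lower, and median centring gave 0 lower. No filter on dim probes, slide as a fixed block and slide 1 alone gave 0 higher and 0 lower, as did each fit that left out 1 animal (lowest and highest 0). Of the other lysosome genes, with 2 higher and 3 lower, spike-in scaling gave 39 and 0, no filter gave 1 and 1, slide as a fixed block and slide 1 alone gave 0 and 0, the mean over probes and slide as a random block gave 1 higher, and trend and robust variance gave 5 lower. Leaving out 1 animal gave 0 to 2 higher and 0 to 3 lower.

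The median log2 fold change over the 37 genes, -0.03, became 0.028 with median centring, 0.45 with spike-in scaling, 0.020 with slide as a fixed block and on slide 1 alone, and 0.0088 with slide as a random block; leaving out 1 animal gave -0.03 to 0.0036. With spike-in scaling the signs turned for Ctsa (0.26), Ctsc (0.087), Ctsk (0.13), Ctsl (0.40), Lamp2 (0.10), Mcoln1 (0.42), Hexa (0.45), Gla (0.39), Glb1 (0.41), Gusb (0.33), Arsa (0.38), Psap (0.43), Smpd1 (0.34), Atp6v0d1 (0.16), Atp6v0d2 (0.44), Atp6v1a (0.45), Atp6v1h (0.17), Atp6ap1 (0.39), Atp6v0c (0.20) and Gabarapl1 (0.063), as the median of all features moved to 0.48. Other turns of sign followed. With normexp they were Ctsb (-0.089), Tpp1 (-0.014), Mcoln1 (0.0018), Glb1 (0.0025) and Atp6v1a (0.074), and with quantile normalization Ctsb (-0.029) and Atp6v1b2 (-0.0062). With median centring they were Hexa (0.020), Atp6v0d2 (0.015) and Atp6v1a (0.028), and with slide as a random block Atp6v0d2 (0.012). With slide as a fixed block, and likewise on slide 1 alone, they were Tpp1 (-0.059), Mcoln1 (0.12), Hexa (0.11), Psap (0.034), Lipa (-0.0047), Acp5 (-0.054) and Atp6v0d2 (0.49). Leaving out 1 animal turned Ctsb (-0.030 to 0.094), Mcoln1 (-0.15 to 0.0078), Hexa (-0.13 to 0.040), Gla (-0.23 to 0.11), Arsb (-0.038 to 0.38), Acp5 (-0.057 to 0.11), Atp6v0d2 (-0.31 to 0.32), Atp6v1a (-0.10 to 0.055) and Atp6v1b2 (-0.060 to 0.090). The cause of these changes was not tested.

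Over all features the 1727 higher and 988 lower calls became 12930 and 319 with spike-in scaling, 361 and 248 without the filter, 189 and 161 with slide as a fixed block and 52 and 68 on slide 1 alone, and leaving out 1 animal left 335 to 1232 calls. Of all calls 63.6% were higher, against 74.2% with median centring and 97.6% with spike-in scaling. With the replicate number as a block, 0 lysosomal genes were higher and 0 lower, 0 of the other lysosome genes were higher and 0 lower, and 353 features passed. The deviations of same-numbered animals correlated at 0.09, 0.02 and 0.12, and each animal correlated best with its own number, a hint from the data and not the design. Fits within slide 1 rest on a single treated animal, whose spread is taken from the corn oil animals.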
